A study of Mus musculus with 25 samples.

Results

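Toll-like receptors (TLRs) and the coreceptors that hand lipopolysaccharide (LPS) to TLR4 were followed as one family across resting, classically activated and alternatively activated mouse macrophages. The family was chosen by gene symbol, with earlier results of these data known. It held 10 of the 24411 genes in the count tables, namely Tlr1, Tlr2, Tlr3, Tlr4, Tlr6, Tlr7, Tlr8, Tlr9, Cd14 and Ly96. All 10 had enough reads to be tested. RNA sequencing covered 25 samples in 9 groups. Bone marrow-derived macrophages (BMDMs) of C57BL/6 mice, which had been differentiated with 25 ng/ml M-CSF for 4 days in DMEM, made up 7 groups of 3 samples. They were an untreated control labelled as cultured for 4 h, cells that received both IFN-γ (at 100 U/ml) and LPS (at 100 ng/ml), taken at 1, 4, 12 or 24 h (IFN-γ-LPS), and cells given IL-4 (10 ng/ml) or IL-13 (10 ng/ml) for 12 h. The other 2 groups, with 2 samples each, were RAW264.7 cells, a virus-transformed macrophage line of BALB/c mouse origin, kept in RPMI. These cells were either untreated for 4 h or given LPS alone (100 ng/ml) for 4 h. The study calls the IFN-γ-LPS cells IFN-γ-primed, but whether IFN-γ came before LPS, and by how long, is not given in the sources used here. It calls its BMDM samples biological triplicates. The labels give no animal for any sample, so the p-values measure the spread between these samples. BMDMs given LPS without IFN-γ were not analysed here, so the effects of the 2 agents in the IFN-γ-LPS groups cannot be told apart. In bulk RNA, fewer cells of one kind and less RNA per cell cannot be told apart either.

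TLRs are receptors of innate immunity that sense molecules made by microbes and start inflammatory and interferon programs in macrophages. TLR4 binds LPS, the outer-membrane lipid of Gram-negative bacteria, in a complex with MD-2 (encoded by Ly96), after CD14 has passed on the LPS. TLR2 pairs with TLR1 or with TLR6 at the cell surface to bind bacterial lipopeptides, whereas TLR3, TLR7, TLR8 and TLR9 sit in endosomes and bind nucleic acids. Most TLRs signal through the adaptor MyD88, TLR3 uses TRIF (encoded by Ticam1), and TLR4 uses both.

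Levels are given as CPM, the reads on the gene's own strand as a share of the library's reads raised to a common total, with TMM factors and after the ribosomal RNA precursor Rn45s had been left out. Fold changes and standard errors (SE) are on the log2 scale from edgeR's quasi-likelihood test over 10612 genes, and a gene is said to rise or fall where its Benjamini-Hochberg adjusted p was at most 0.01. All adjusted p-values below come from that test unless another tool is named.

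The annotated start sites of the family were examined first, because the promoter sequences show which members carry recognition motifs of the factors that act downstream of IFN-γ and LPS. RefSeq windows of 250 bases before the start (build GRCm38.p6) were given for 6 of the 10 members, with 8 windows in all. Tlr4, Tlr7 and Ly96 had no entry, and the window of Cd14 is not shown. The motifs searched on both strands were the ISRE core GAAANNGAA of interferon-responsive factors, the NF-kB core GGGANNTNC, the GAS element TTCNNNGAA of STAT factors, the AP-1 element TGANTCA and the core GAGGAAG of the macrophage factor PU.1. At least 1 match was present in 7.13% (ISRE), 12.5% (NF-kB), 7.02% (GAS), 6.75% (AP-1) and 10.6% (PU.1) of the 32851 windows of the same length in the table. The whole windows of Tlr6, Tlr8 and Tlr9 follow, 5′ to 3′ on the strand of the gene, because they overlapped no exon of the family and represent a surface receptor and both kinds of nucleic acid sensor. Capitals mark the motif matches.
Tlr6 (chr5:64959167-64959416, minus strand): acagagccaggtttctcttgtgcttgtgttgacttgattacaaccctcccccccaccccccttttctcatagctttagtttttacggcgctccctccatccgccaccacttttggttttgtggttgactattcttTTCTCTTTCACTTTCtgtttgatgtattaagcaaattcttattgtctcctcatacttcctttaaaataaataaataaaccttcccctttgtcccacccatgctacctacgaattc
Tlr8 (chrX:167264330-167264579, minus strand): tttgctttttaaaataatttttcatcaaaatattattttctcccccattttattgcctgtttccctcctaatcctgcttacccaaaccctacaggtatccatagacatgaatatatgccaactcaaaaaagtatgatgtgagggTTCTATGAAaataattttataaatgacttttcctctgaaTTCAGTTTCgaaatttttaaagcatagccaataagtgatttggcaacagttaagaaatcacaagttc
Tlr9 (chr9:106222348-106222597, plus strand): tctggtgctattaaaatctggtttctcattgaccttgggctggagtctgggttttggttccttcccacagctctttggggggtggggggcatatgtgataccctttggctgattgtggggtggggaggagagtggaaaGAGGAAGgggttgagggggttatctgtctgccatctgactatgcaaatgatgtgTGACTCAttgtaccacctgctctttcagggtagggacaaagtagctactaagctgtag
The capitals of Tlr6 cover 2 overlapping ISRE matches on the reverse strand, 115 and 109 bases before the start. Tlr8 held a GAS match at 106 bases and an ISRE match at 67 bases, and Tlr9 held a PU.1 match at 112 bases and an AP-1 match at 58 bases before the start.

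In the other windows the matches alone are shown, each with the 8 bases on either side, since their windows ran into annotated exons.
Tlr2 (chr3:83841764-83841788, minus strand): gacacctgGGGAATTCCcacacgga
Tlr2 (chr3:83841623-83841647, minus strand): tggcgaccGGGAAGTTCggggccct
Tlr3 (chr8:45410575-45410599, minus strand): ttgtttctGGGAGTTTCctgctttt
Tlr1 (chr5:64933567-64933589, minus strand): aaatgttgGAGGAAGtaggagct
Tlr1, another start site (chr5:64932911-64932935, minus strand): tagctagcTTCATCGAAgcagagat
Tlr2 held NF-kB matches 172 and 31 bases before its start, and the first of them was matched on the reverse strand as well, 1 base further on. Tlr3 held an NF-kB match at 211 bases, and Tlr1 a PU.1 match at 23 bases before its first start site and a GAS match at 228 bases before another. The other window of Tlr6 held none of the 5 motifs. These matches describe letters in a window of this length and say nothing on binding.

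The genes of the family are spread over the genome (GENCODE positions, GRCm38), and the members on the same chromosome are neighbours. Tlr1 (chr5:64924679-64933563) and Tlr6 (chr5:64952031-64960097) lie next to each other on the minus strand. They are related genes, so reads in any stretches they share could be lost or split between them. Tlr7 (chrX:167304929-167330558) and Tlr8 (chrX:167242696-167264329) are neighbours on the minus strand of the X chromosome. Tlr2 (chr3:83836272-83841767) and Tlr3 (chr8:45395665-45411080) are on the minus strand, whereas Tlr4 (chr4:66827584-66930284), Tlr9 (chr9:106222598-106226883) and Ly96 (chr1:16688051-16709611) are on the plus strand. Only Tlr3 overlapped another annotated gene, Gm45542 on the opposite strand, and the reads were counted by strand.

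The libraries held 2378639 to 3357300 reads on genes, of which Rn45s took 20.1% to 39.8%, leaving 1502618 to 2532496 reads. No pair of replicates was as alike as counting noise alone would make it (chi-square per degree of freedom 1.30 to 4.53 over 23 pairs), so every library was counted. All 9 macrophage markers fixed for the check were detected in BMDMs, where they summed to 17329 to 31757 CPM. In RAW264.7 cells the sum was 6733 to 7677 CPM, and Mertk, a macrophage receptor for dying cells, had no read. The 5 dendritic cell markers summed to at most 2.47 CPM in BMDMs and 4.72 CPM in RAW264.7 cells, the 5 B cell markers to at most 1.79 CPM, and no read fell on the T cell or erythroid markers in the tables. Stromal collagen genes and their like summed to 52.5 to 109 CPM in BMDMs and to 0 in RAW264.7 cells. The neutrophil and myeloid precursor markers, 6 of 7 in the tables, summed to 9.25 to 18.2 CPM in the control and to 21.9 to 46.8 CPM over the IFN-γ-LPS groups, and their part in the results was not tested.

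In resting BMDMs, Cd14 and the RNA sensors Tlr7 and Tlr8 had the highest levels of the family, and Tlr3 the lowest. Per kilobase of exon, the mean level in the control was 166 CPM for Cd14, 69.1 CPM for Tlr7, 50.2 CPM for Tlr8, 29.7 CPM for Tlr4 and 29.5 CPM for Tlr2. The remaining members lay lower, at 10.2 CPM per kilobase for Ly96, 6.20 for Tlr9, 5.70 for Tlr1, 4.87 for Tlr6 and 2.35 for Tlr3. Ly96 is a short gene and had 6 to 51 reads in each of the 25 samples, so its values carry a large counting error.

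**Figure D1:**
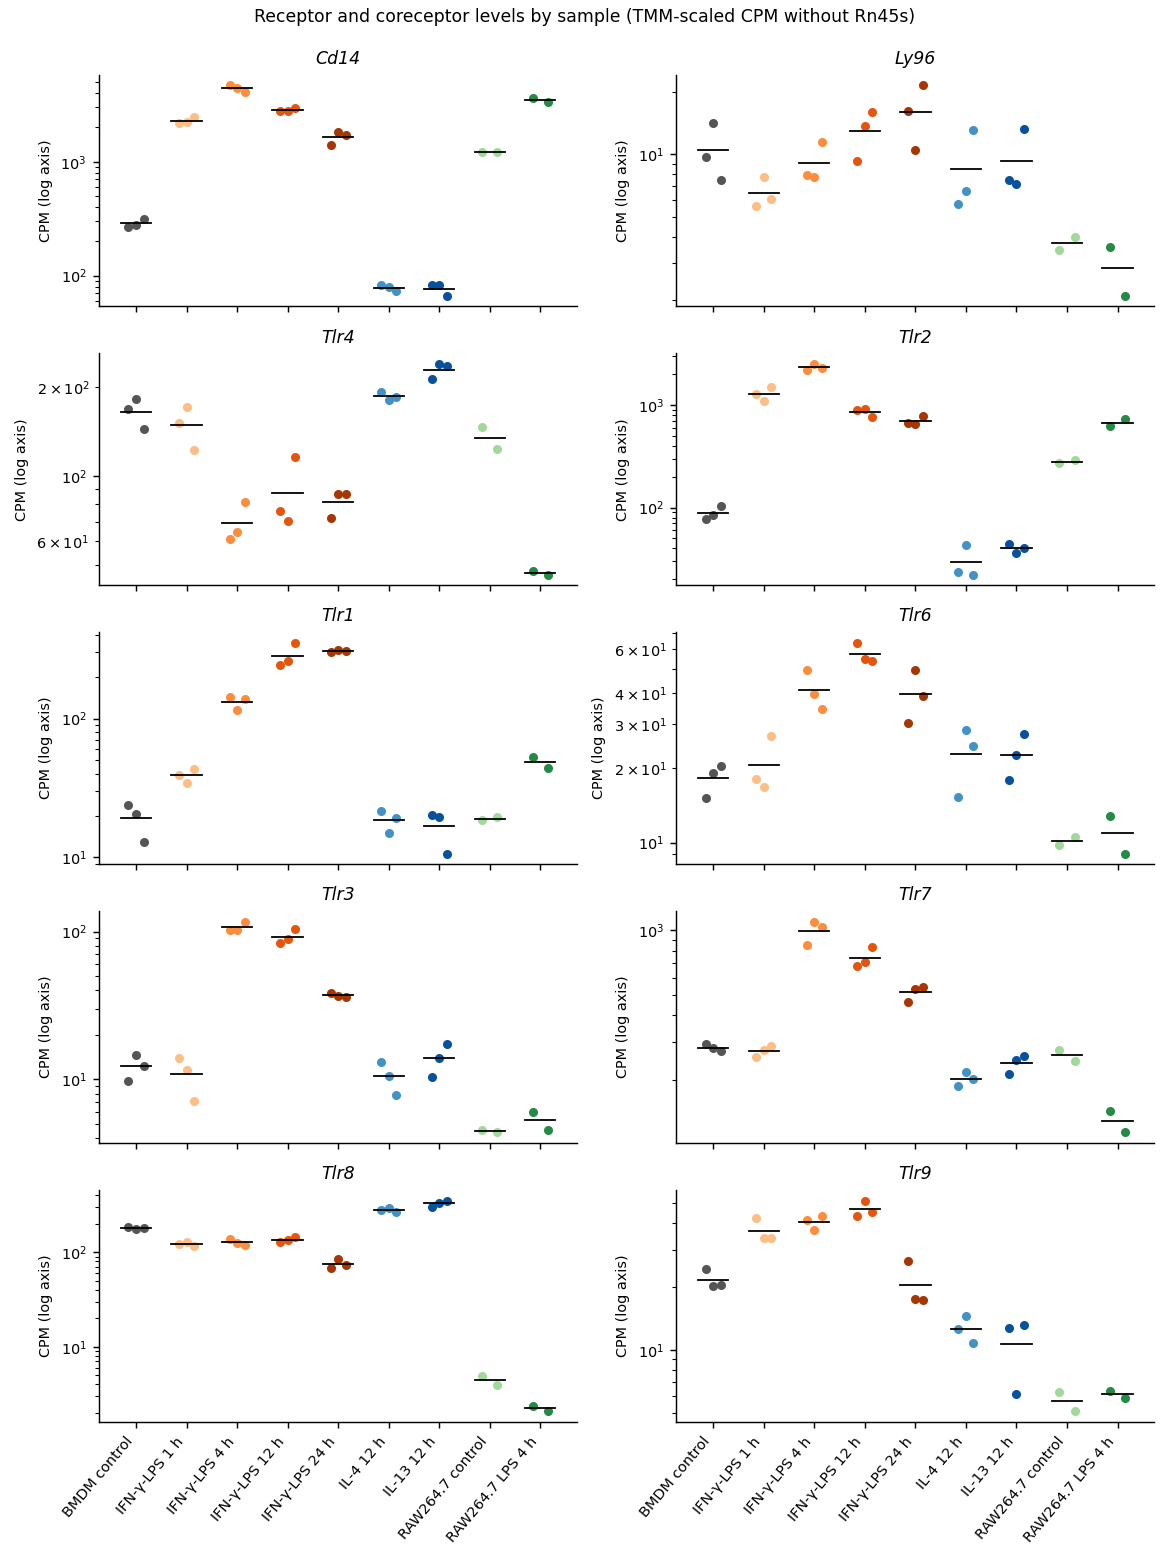
Level of each of the 10 genes in every sample, as TMM-scaled CPM on a log axis, by group. Each point is 1 sample and each black line a group mean. Cd14 and Tlr2 peak in the 4 h IFN-γ-LPS samples, and Tlr8 drops to between 2.08 and 4.87 CPM in the 4 RAW264.7 samples.

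The first question was how the receptors moved over the course of classical activation, with each time of IFN-γ-LPS set against the same 3 control samples. These 4 comparisons share their control. At 1 h, 4 of the 10 members rose (14.7% of all genes tested did) and 1 fell (10.3%). At 4 h, 7 rose (25.3%) and 2 fell (23.2%), and at 12 h again 7 rose (23.2%) and 2 fell (21.6%). At 24 h, 6 rose (22.3%) and 2 fell (20.5%). The median log2 fold change of the 10 members was 0.08, 1.496, 1.53 and 0.99 at the 4 times, against −0.02, −0.09, −0.02 and −0.01 over all genes. By edgeR the shares of called genes that rose were 58.8%, 52.1%, 51.8% and 52.1%. When the TMM factors were left out (a setting chosen after the data were seen), these shares were 34.5%, 23.3%, 29.8% and 34.8%, because that setting moved the median of all genes to −0.23, −0.66, −0.38 and −0.23.

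Among the genes of LPS reception, the coreceptor went up while the receptor went down. Cd14 stood at 269.6, 276 and 317 CPM in the 3 control samples, at 2184, 2243 and 2463 CPM after 1 h and at 4715, 4485 and 4059 CPM after 4 h. It was at 2783, 2810.4 and 2943 CPM after 12 h and at 1405, 1809 and 1721 CPM after 24 h. Every treated sample was above every control sample, with the highest values at 4 h. The log2 fold changes against control were 2.996 (SE 0.0938, adjusted p = 3.59e-41), 3.94 (SE 0.0968, adjusted p = 2.39e-48), 3.31 (SE 0.0947, adjusted p = 5.22e-44) and 2.51 (SE 0.0925, adjusted p = 4.18e-37) at 1, 4, 12 and 24 h. Tlr4, the signalling receptor itself, moved the other way. Tlr4 stood at 168, 182 and 144 CPM in the control, 151, 172 and 122 CPM at 1 h and 61.2, 64.6 and 81.4 CPM at 4 h. At 12 h it was at 75.8, 70.4 and 116 CPM and at 24 h at 72.0, 86.7 and 86.9 CPM. The 1 h samples overlapped the control, while every sample from 4 h on lay below every control sample. Tlr4 did not pass at 1 h (log2 fold change −0.16, SE 0.122, adjusted p = 0.332), and fell at 4 h (−1.25, SE 0.143, adjusted p = 2.48e-11), 12 h (−0.91, SE 0.131, adjusted p = 1.92e-08) and 24 h (−1.01, SE 0.127, adjusted p = 7.44e-10). Without TMM factors Tlr4 was called lower at 1 h as well (−0.38, adjusted p = 0.00707). Ly96, whose product MD-2 holds the LPS in the receptor complex, was at 9.69, 14.1 and 7.51 CPM in the control and at 16.2, 10.5 and 21.5 CPM at 24 h. These ranges overlapped, and Ly96 passed at no time, with log2 fold changes of −0.70 (SE 0.348, adjusted p = 0.118), −0.20 (SE 0.355, adjusted p = 0.656), 0.31 (SE 0.304, adjusted p = 0.410) and 0.64 (SE 0.276, adjusted p = 0.0455). Without the 24 h replicate 2 the last value was 0.86 (adjusted p = 0.00976).

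The ratio of coreceptor to receptor within a sample does not depend on how libraries are scaled. Per kilobase, Cd14 was 4.86 to 7.06 times the level of Tlr4 in the control samples and 160 to 247 times that level at 4 h. It was still 62.6 to 66.9 times the level of Tlr4 at 24 h.

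The lipopeptide receptors rose, each with its own timing. Tlr2, the shared partner of both surface pairs, stood at 78.0, 83.8 and 105 CPM in the control, 1282, 1102 and 1519 CPM at 1 h and 2198, 2532 and 2322 CPM at 4 h. It then stood at 894, 913 and 772 CPM at 12 h and 674, 658 and 779 CPM at 24 h. Every treated sample exceeded every control sample, and the 4 h samples were the highest. The log2 fold changes of Tlr2 were 3.87 (SE 0.136), 4.73 (SE 0.139), 3.27 (SE 0.136) and 2.99 (SE 0.135), with adjusted p between 4.53e-27 and 6.18e-21. Tlr1, which pairs with TLR2 for triacylated lipopeptides, was low in the control at 23.7, 20.7 and 12.9 CPM and stood at 39.3, 34.2 and 43.6 CPM at 1 h and 142, 115 and 139 CPM at 4 h. It went on to 243, 259 and 351 CPM at 12 h and 300.2, 312 and 307 CPM at 24 h. No treated sample overlapped the control, and the highest samples were found at 12 and 24 h, not at 4 h. The log2 fold changes of Tlr1 were 1.04 (SE 0.203, adjusted p = 3.06e-05), 2.78 (SE 0.176, adjusted p = 1.89e-21), 3.90 (SE 0.159, adjusted p = 1.22e-30) and 4.00 (SE 0.156, adjusted p = 1.76e-31). Tlr6, which pairs with TLR2 for diacylated lipopeptides, changed less. Tlr6 was at 15.1, 19.0 and 20.4 CPM in the control, 17.9, 16.8 and 26.9 CPM at 1 h and 49.7, 39.7 and 34.5 CPM at 4 h. At 12 h it was at 63.7, 54.7 and 53.7 CPM and at 24 h at 30.4, 49.3 and 38.8 CPM. Its 1 h samples overlapped the control and its later samples did not. Tlr6 did not pass at 1 h (log2 fold change 0.20, SE 0.233, adjusted p = 0.555) and rose by 1.18 (SE 0.219, adjusted p = 4.02e-06), 1.66 (SE 0.195, adjusted p = 2.20e-11) and 1.12 (SE 0.200, adjusted p = 2.18e-06) at 4, 12 and 24 h. Without TMM factors the 4 h value of Tlr6 was 0.59 (adjusted p = 0.0142). Per kilobase, Tlr1 was 0.703 to 1.75 times the level of its neighbour Tlr6 in the control and 7.04 to 11.0 times that level at 24 h. On the same measure, Tlr2 went from 0.847 to 1.34 times the level of Tlr4 in the control to 52.6 to 72.3 times at 4 h.

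**Figure D2:**
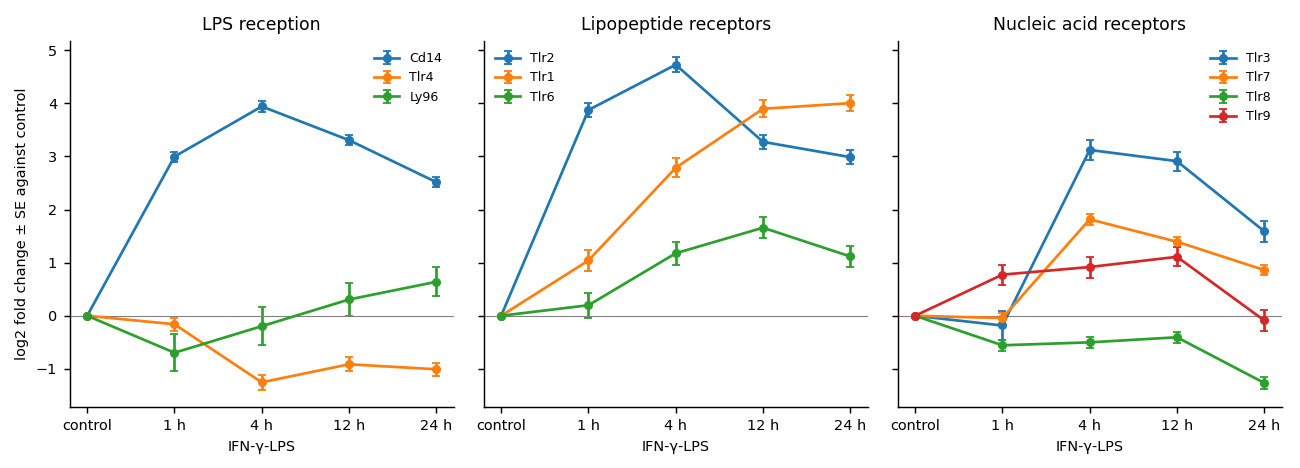
Log2 fold change of each gene against the BMDM control at 1, 4, 12 and 24 h of IFN-γ-LPS (3 samples a group), in panels for LPS reception, lipopeptide receptors and nucleic acid receptors. Points are edgeR estimates, bars are SE and the time axis is not to scale. Tlr2 and Cd14 peak at 4 h, Tlr1 is highest at 24 h (4.00), and Tlr4 and Tlr8 lie below 0.

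The endosomal nucleic acid receptors split. Tlr3, the receptor for long RNA duplexes, was nearly silent at rest, at 9.69, 14.7 and 12.3 CPM, and stood at 14.0, 11.6 and 7.10 CPM at 1 h. It reached 102, 102 and 117 CPM at 4 h, 83.9, 88.6 and 104 CPM at 12 h and 38.2, 36.9 and 35.9 CPM at 24 h. The 1 h samples overlapped the control and all later samples lay above it. Tlr3 did not pass at 1 h (log2 fold change −0.18, SE 0.267, adjusted p = 0.645), and rose by 3.12 (SE 0.181, adjusted p = 1.30e-25), 2.91 (SE 0.179, adjusted p = 3.53e-24) and 1.59 (SE 0.201, adjusted p = 2.07e-10) at the later times. Tlr7, a receptor for single-stranded RNA, had the same timing from a much higher start. Tlr7 stood at 294, 280.2 and 271 CPM in the control, 257, 277 and 286 CPM at 1 h and 853, 1094 and 1028 CPM at 4 h. It then stood at 681, 707 and 834 CPM at 12 h and 463, 531 and 541 CPM at 24 h. Tlr7 did not pass at 1 h (log2 fold change −0.04, SE 0.1002, adjusted p = 0.778) and rose by 1.82 (SE 0.0978, adjusted p = 2.28e-27), 1.39 (SE 0.0971, adjusted p = 2.61e-21) and 0.86 (SE 0.0968, adjusted p = 3.78e-12) at 4, 12 and 24 h.

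Tlr8, the neighbour of Tlr7 on the X chromosome and a receptor of the same subfamily, fell at every time. Tlr8 was at 183, 176 and 180.1 CPM in the control, 121, 129.6 and 117 CPM at 1 h and 138, 126 and 118 CPM at 4 h. It was at 129, 133 and 146 CPM at 12 h and 68.6, 83.7 and 72.6 CPM at 24 h. All treated samples lay below all control samples, the 24 h samples by the widest margin. The log2 fold changes of Tlr8 were −0.56 (SE 0.102, adjusted p = 6.23e-06), −0.50 (SE 0.106, adjusted p = 3.91e-05), −0.41 (SE 0.101, adjusted p = 0.000458) and −1.26 (SE 0.105, adjusted p = 1.62e-17). Per kilobase, Tlr7 was 1.32 to 1.41 times the level of Tlr8 in the control samples and 5.45 to 7.63 times at 4 h. Tlr9, the receptor for CpG DNA, stood at 24.2, 20.1 and 20.4 CPM in the control, 42.6, 34.2 and 34.0 CPM at 1 h and 41.7, 37.3 and 43.6 CPM at 4 h. At 12 h it was at 43.4, 51.5 and 45.4 CPM and at 24 h, back among the control values, at 26.4, 17.4 and 17.3 CPM. Tlr9 rose by 0.77 (SE 0.188, adjusted p = 0.000606), 0.92 (SE 0.197, adjusted p = 4.95e-05) and 1.11 (SE 0.182, adjusted p = 2.55e-07) at 1, 4 and 12 h and did not pass at 24 h (−0.09, SE 0.202, adjusted p = 0.740). The early calls of Tlr9 were lost without TMM factors (0.55, adjusted p = 0.0161 at 1 h, and 0.34, adjusted p = 0.128 at 4 h), and the 1 h call was lost without the 1 h replicate 1 (0.66, adjusted p = 0.0125).

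Successive times show when each receptor moved. From 1 to 4 h, 6 of the 10 members rose (19% of all genes) and 1 fell (17.2%). Tlr3 had the largest step of the family (3.30, SE 0.188, adjusted p = 9.21e-26), followed by Tlr7 (1.86, SE 0.0983, adjusted p = 1.84e-27), Tlr1 (1.74, SE 0.157, adjusted p = 8.86e-15), Tlr6 (0.98, SE 0.215, adjusted p = 0.000104), Cd14 (0.94, SE 0.0847, adjusted p = 5.93e-16) and Tlr2 (0.85, SE 0.112, adjusted p = 4.84e-08). Tlr4 was the member that fell (−1.09, SE 0.145, adjusted p = 3.35e-09). The step of Tlr6 was 0.62 without TMM factors (adjusted p = 0.0130).

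From 4 to 12 h, 1 member rose (15.2% of all genes) and 3 fell (18.2%). Tlr1 kept rising (1.11, SE 0.126, adjusted p = 3.87e-11), while Tlr2 (−1.45, SE 0.115, adjusted p = 2.45e-13), Cd14 (−0.64, SE 0.0842, adjusted p = 1.47e-09) and Tlr7 (−0.42, SE 0.0928, adjusted p = 0.000116) came down. Without TMM factors the step of Tlr7 was −0.19 (adjusted p = 0.0609), and that of Tlr6, which did not pass in the fit used here (0.48, SE 0.183, adjusted p = 0.0270), was 0.71 (adjusted p = 0.000971). Tlr4, which did not pass either (0.34, SE 0.154, adjusted p = 0.0696), was 0.56 higher at 12 h in that setting (adjusted p = 0.00127), and Tlr6 was also called with unstranded counts (0.56, adjusted p = 0.00751). From 12 to 24 h, 0 members rose (4.22% of all genes) and 5 fell (9.36%). No member rose with an unadjusted p under 0.05 either, and DESeq2 called 0 higher and 5 lower. The 5 were Tlr3 (−1.32, SE 0.142, adjusted p = 6.73e-12), Tlr9 (−1.20, SE 0.179, adjusted p = 1.44e-07), Tlr8 (−0.86, SE 0.109, adjusted p = 1.72e-09), Cd14 (−0.79, SE 0.0847, adjusted p = 5.73e-12) and Tlr7 (−0.53, SE 0.0932, adjusted p = 5.21e-06). Tlr6 missed the threshold (−0.54, SE 0.166, adjusted p = 0.0119) but was called lower without the filter on low counts (adjusted p = 0.00568), with unstranded counts (adjusted p = 0.00551), under a block for replicate numbers (adjusted p = 0.00671) and when any of 4 samples was left out. All 4 endosomal receptors of the family were among the 5 that fell. Tlr13, an endosomal receptor outside the family, was not called in this step. Its mean level was 369.5 CPM at 12 h and 323.1 CPM at 24 h. Of the reads on Rn45s, 0.0386% to 0.122% were antisense in the 12 control, 1 h, 4 h and 12 h libraries and 0.00603% to 0.0214% in the 9 other BMDM libraries, those of both cytokines and of 24 h. In the 4 RAW264.7 libraries 0.0199% to 0.0283% were antisense. The first set overlapped neither of the others in that share, so a library difference and the treatment cannot be told apart in comparisons across them.

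The rest of the pathway was described from lists of genes chosen by function, with earlier results of these data known. At 4 h the median log2 fold change was 0.84 over the adaptors, 0.75 over the accessory proteins and 1.08 over the inhibitors, against −0.09 over all genes. Over all genes, 14.7%, 25.3%, 23.2% and 22.3% rose and 10.3%, 23.2%, 21.6% and 20.5% fell at 1, 4, 12 and 24 h, beside which the counts below stand. Of the 18 adaptors and signal transducers, all tested, 6, 11, 9 and 7 rose and 1, 2, 1 and 3 fell at 1, 4, 12 and 24 h. Myd88 went from 46.2 ± 4.96 (SD, n = 3) to 385 ± 35.5 CPM at 4 h (log2 fold change 3.06, SE 0.128, adjusted p = 1.98e-33). Irak2, a kinase of the MyD88 complex, rose by 2.01 at 4 h (SE 0.0943, adjusted p = 7.11e-31), and Tab2, which links ubiquitin chains to the kinase TAK1, by 1.81 (SE 0.110, adjusted p = 1.59e-24). Ikbke, a kinase that activates interferon regulatory factors, rose by 2.72 at 12 h (SE 0.117, adjusted p = 8.16e-33).

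Of the 10 accessory and trafficking proteins, 9 were tested, and 5, 6, 5 and 6 rose and 2, 3, 2 and 1 fell at 1, 4, 12 and 24 h. Cd180, a TLR4-like surface protein, and its partner Ly86 both rose at 1 h, by 1.47 (SE 0.0926, adjusted p = 2.70e-23) and 2.45 (SE 0.123, adjusted p = 2.30e-28). Slc15a3, an endolysosomal peptide transporter, rose by 1.90 at 12 h (SE 0.0895, adjusted p = 1.14e-30), and Cd36, a scavenger receptor that assists TLR2, fell by 1.82 at 24 h (SE 0.117, adjusted p = 2.77e-16). Of the 9 inhibitors, 7 were tested, with 2, 3, 3 and 3 higher and 1, 1, 2 and 2 lower. Trim30a rose by 4.24 at 4 h (SE 0.127, adjusted p = 1.60e-42), Lilrb4a by 1.31 at 4 h (SE 0.0974, adjusted p = 8.48e-19) and Irak3, the inhibitory IRAK of macrophages, by 3.63 at 24 h (SE 0.139, adjusted p = 3.99e-36). Cd300a, an inhibitory receptor, fell by 3.25 at 24 h (SE 0.115, adjusted p = 4.80e-38). Of the 4 other mouse TLRs, Tlr13, an endosomal receptor for bacterial ribosomal RNA, went from 1080 ± 43.4 to 295 ± 25.6 CPM at 4 h (SD, n = 3), a log2 fold change of −1.87 (SE 0.0993, adjusted p = 1.48e-27). Tlr5 had no read in any sample, and Tlr11 was below the filter on low counts. Tlr12 was tested, with no read in the control and means of 8.865 CPM at 1 h and 3.28 CPM at 4 h. Of the 2 tested, 1, 1, 0 and 0 rose and 0, 1, 1 and 1 fell at 1, 4, 12 and 24 h. Over the alternatives, 0 to 2 were called at 1 h and 1 to 2 at 4 h.

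**Figure D3:**
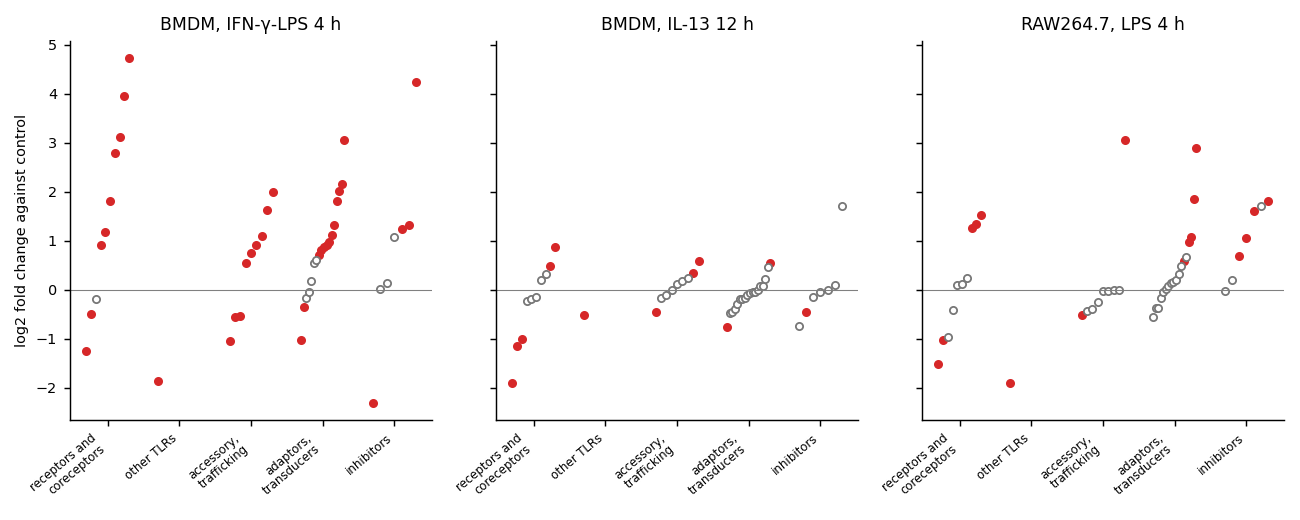
Log2 fold change against the control of the same cells for the 10 members and the genes of the pathway lists. The panels show BMDMs at 4 h of IFN-γ-LPS, BMDMs at 12 h of IL-13 and RAW264.7 cells at 4 h of LPS. There is 1 point per gene, red and filled for genes called at an adjusted p of at most 0.01 and grey and open for the others. Tlr12, with no read in the control, is not plotted. In the IFN-γ-LPS panel, Tlr2 (4.73) and Trim30a (4.24) are the highest of their columns.

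The next question was what alternative activation did to the same receptors. IL-4 and IL-13 act through receptors that share the IL-4 receptor α chain and activate STAT6. The control was labelled 4 h and the cytokine groups 12 h, and the libraries differ in the antisense Rn45s share given above, so time, library and cytokine cannot be told apart here. With IL-4, 1 of the 10 members rose (3.78% of all genes) and 3 fell (2.47%), and with IL-13, 2 rose (4.98%) and 3 fell (3.35%). The members' median log2 fold change was −0.26 with IL-4 and −0.17 with IL-13, against 0 and −0.01 over all genes. Both comparisons use the same control samples.

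Cd14 fell with both cytokines, from 269.6, 276 and 317 CPM in control cells to 81.9, 79.1 and 73.5 CPM under IL-4 and 82.5, 82.0 and 66.5 CPM with IL-13. No sample overlapped. The log2 fold changes were −1.88 (SE 0.107, adjusted p = 3.63e-24) and −1.90 (SE 0.107, adjusted p = 9.74e-25). Tlr2 went from 78.0, 83.8 and 105 CPM to 23.6, 42.9 and 22.1 CPM with IL-4 and 43.8, 35.9 and 40.1 CPM with IL-13. All 6 cytokine samples lay below the control, and 1 IL-4 sample stood apart from the other IL-4 samples. Tlr2 fell by 1.58 with IL-4 (SE 0.181, adjusted p = 2.73e-08) and by 1.16 with IL-13 (SE 0.171, adjusted p = 3.05e-06).

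Tlr4 and Tlr8, both lower after IFN-γ-LPS, stood at or above the control here. Tlr4 was at 168, 182 and 144 CPM in control cells, 193, 181 and 186 CPM under IL-4 and 213, 240.0 and 236 CPM with IL-13. The IL-4 samples overlapped the control and the IL-13 samples did not. Tlr4 did not pass with IL-4 (0.18, SE 0.119, adjusted p = 0.409) and rose with IL-13 (0.48, SE 0.117, adjusted p = 0.00229), a call that was lost by DESeq2 (0.47, adjusted p = 0.0133) and without control replicate 3 (0.39, adjusted p = 0.0425), IL-13 replicate 2 (0.45, adjusted p = 0.0189) or IL-13 replicate 3 (0.46, adjusted p = 0.0147). Tlr8 was at 183, 176 and 180.1 CPM in control cells, 276, 293 and 267 CPM under IL-4 and 301, 331 and 351 CPM with IL-13. Every cytokine sample was above every control sample. Tlr8 rose by 0.63 with IL-4 (SE 0.0948, adjusted p = 4.15e-07) and by 0.87 with IL-13 (SE 0.0938, adjusted p = 1.25e-11).

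Tlr7 was at 294, 280.2 and 271 CPM in control cells, 188, 217 and 201 CPM under IL-4 and 213, 248 and 259 CPM with IL-13. All 6 cytokine samples lay below the control. Tlr7 fell with IL-4 (−0.48, SE 0.102, adjusted p = 0.000419), a call that was just lost without IL-4 replicate 1 (−0.43, adjusted p = 0.010005), and did not pass with IL-13 (−0.23, SE 0.101, adjusted p = 0.129). Within each sample, Tlr7 per kilobase was 0.598 to 0.664 times the level of Tlr8 with IL-4 and 0.624 to 0.657 times with IL-13, where it had been above Tlr8 in every control sample. Tlr9 was at 24.2, 20.1 and 20.4 CPM in control cells, 12.6, 14.5 and 10.8 CPM under IL-4 and 12.7, 6.15 and 13.2 CPM with IL-13. The groups did not overlap, but only IL-13 passed the test (−1.02, SE 0.237, adjusted p = 0.00105, against −0.77, SE 0.231, adjusted p = 0.0190 with IL-4). The IL-13 call of Tlr9 was lost without control replicate 1 (−0.93, adjusted p = 0.0127) and without IL-13 replicate 2 (−0.73, adjusted p = 0.0464), so 3 members in place of 5 were called without the latter sample. Tlr1, Tlr3, Tlr6 and Ly96 passed with neither cytokine, with log2 fold changes between −0.31 and 0.33.

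Set directly against each other, the cytokines gave no call in the family. By edgeR, 0 members were higher with IL-13 (0.0754% of all genes, which is 8 genes) and 0 were lower (0%). By DESeq2 the counts were 0 and 0 as well. At an unadjusted p under 0.05, 4 members were higher with IL-13 and 0 were lower. These were Tlr2 (0.43, 95% interval 0.03 to 0.83), Tlr4 (0.30, 0.07 to 0.53), Tlr7 (0.25, 0.05 to 0.45) and Tlr8 (0.23, 0.06 to 0.41). Cd14 differed by −0.03 (−0.26 to 0.21).

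**Figure D4:**
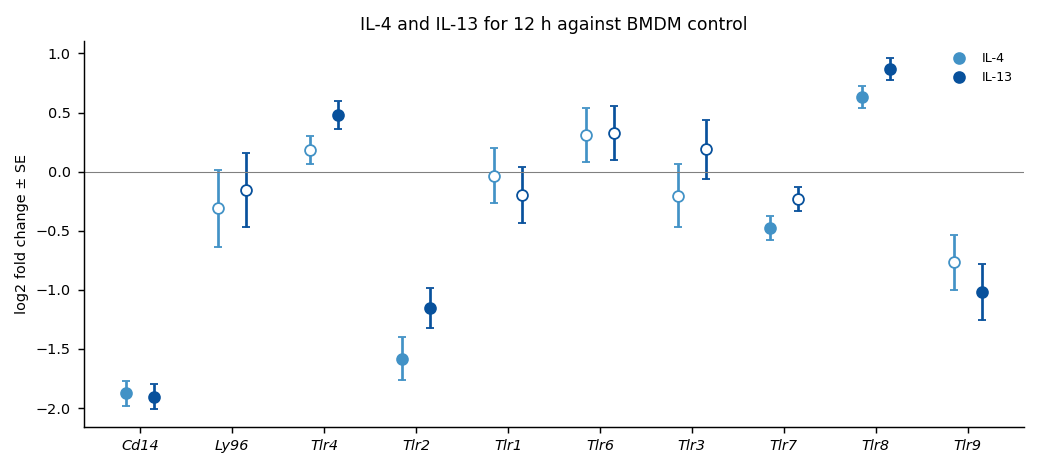
Log2 fold change of each gene with IL-4 and with IL-13 at 12 h against the BMDM control (3 samples a group). Points are edgeR estimates with SE bars, filled where the adjusted p was at most 0.01 and open otherwise. Cd14 and Tlr2 are the lowest with both cytokines and Tlr8 is the highest (0.63 and 0.87).

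At the same time of 12 h, classical and alternative activation were compared directly. Their libraries differ in the antisense Rn45s share given above, so library and treatment cannot be told apart here either. Against IL-4, 7 members were higher after IFN-γ-LPS (21.1% of all genes) and 2 were lower (19.9%). Against IL-13, 7 were higher (21%) and 2 were lower (20%), and both comparisons use the same IFN-γ-LPS samples. Cd14 differed by 5.18 (SE 0.108, adjusted p = 1.38e-52) from IL-4 and by 5.21 (SE 0.108, adjusted p = 8.86e-53) from IL-13, the largest difference of the family in each. Tlr2 followed with 4.86 (SE 0.158, adjusted p = 1.43e-25) and 4.43 (SE 0.150, adjusted p = 5.68e-25), and Tlr1 with 3.93 (SE 0.160, adjusted p = 1.38e-30) and 4.09 (SE 0.162, adjusted p = 2.92e-31). Tlr3, Tlr6, Tlr7 and Tlr9 were higher by 1.33 to 3.11. The 2 members that were lower were Tlr4, by −1.09 (SE 0.130, adjusted p = 1.07e-10) and −1.39 (SE 0.127, adjusted p = 1.52e-14), and Tlr8, by −1.04 (SE 0.0986, adjusted p = 5.03e-15) and −1.27 (SE 0.0976, adjusted p = 3.04e-19). Ly96 passed in neither (0.62, SE 0.320, adjusted p = 0.104, and 0.46, SE 0.309, adjusted p = 0.217).

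With the cytokines the pathway lists held few calls, and with IL-13 their medians were −0.09 (adaptors), 0.11 (accessory proteins) and −0.05 (inhibitors), against −0.01 over all genes. Over all genes 3.78% rose and 2.47% fell with IL-4, and 4.98% rose and 3.35% fell with IL-13. These small counts moved over the alternatives, from 1 to 2 (IL-4) and 1 to 3 (IL-13) adaptors called, 1 to 3 accessory proteins with either cytokine, and 1 to 2 inhibitors with IL-13. Of the 18 adaptors, 1 rose and 1 fell with each cytokine, and the genes named by the rule were Pik3ap1, which fell by 0.76 with IL-13 (SE 0.115, adjusted p = 3.48e-07), and Ube2n, which rose by 0.56 with IL-4 (SE 0.148, adjusted p = 0.00555). Of the 9 accessory proteins tested, 2 rose and 1 fell with each. Cd36 rose with IL-13 (0.58, SE 0.111, adjusted p = 0.000198), Slc15a3 rose with IL-4 (0.43, SE 0.0892, adjusted p = 0.000283) and Cd180 fell with IL-13 (−0.45, SE 0.0973, adjusted p = 0.000320). Of the 7 inhibitors tested, Cd300a was the 1 that fell with IL-4 (−0.48, SE 0.0936, adjusted p = 0.000101), and 1 fell with IL-13. Tlr13 fell by 0.51 with IL-13 (SE 0.0915, adjusted p = 1.42e-05).

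RAW264.7 cells are often used in place of primary macrophages, so the family was compared at rest, after LPS and in its response. At rest, 2 members were higher in RAW264.7 cells than in control BMDMs (31.9% of all genes) and 5 were lower (33.7%). Cd14 stood at 1215 and 1213 CPM in the 2 untreated RAW264.7 samples, against 269.6, 276 and 317 CPM in BMDMs, a log2 difference of 2.08 (SE 0.0979, adjusted p = 1.05e-30). Tlr2 stood at 270.0 and 293 CPM, above every control BMDM sample (1.66, SE 0.146, adjusted p = 1.15e-12).

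Tlr8 was all but absent from the line. It had 14 and 11 reads in the untreated and 6 and 6 reads in the LPS samples, which is 4.87 and 4.00 CPM and 2.39 and 2.08 CPM, against 68.6 CPM or more in any BMDM sample. The difference at rest was −5.32 (SE 0.186, adjusted p = 3.15e-38). Per kilobase, Tlr7 was 49.8 to 54.1 times the level of Tlr8 in untreated RAW264.7 cells. Tlr9 stood at 6.26 and 5.09 CPM (−1.91, SE 0.277, adjusted p = 5.85e-09) and Tlr3 at 4.52 and 4.36 CPM (−1.45, SE 0.325, adjusted p = 6.36e-05), both below all control BMDM samples. Ly96 stood at 3.48 and 4.00 CPM (−1.47, SE 0.392, adjusted p = 0.000669). That call was lost without control replicate 2 (−1.19, adjusted p = 0.0146) or RAW264.7 control replicate 1 (−1.37, adjusted p = 0.0124). Tlr6 stood at 9.74 and 10.5 CPM (−0.84, SE 0.273, adjusted p = 0.00488). The call of Tlr6 was lost by DESeq2 (−0.82, adjusted p = 0.0193), without TMM factors (−0.59, adjusted p = 0.0496), and without either RAW264.7 control sample or the control replicate 2 or 3 (−0.89 to −0.75, adjusted p = 0.0166 to 0.0408). Tlr1 (−0.00, SE 0.236, adjusted p = 0.9953), Tlr7 (−0.11, SE 0.109, adjusted p = 0.365) and Tlr4 (−0.29, SE 0.132, adjusted p = 0.0458) did not pass. In a fit of the compared groups alone, Tlr4 was called lower (−0.31, adjusted p = 0.00204).

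LPS alone for 4 h raised 3 members in RAW264.7 cells (8.9% of all genes) and lowered 2 (9.61%). Cd14 went to 3627 and 3364 CPM, Tlr2 from 270.0 and 293 to 621 and 726 CPM, and Tlr1 from 18.4 and 19.6 to 53.1 and 43.8 CPM. In all 3 genes both LPS samples were above both untreated samples. The log2 fold changes were 1.53 for Cd14 (SE 0.105, adjusted p = 9.28e-21), 1.26 for Tlr2 (SE 0.143, adjusted p = 5.59e-09) and 1.34 for Tlr1 (SE 0.208, adjusted p = 4.62e-07). Tlr4 went from 146 and 124 to 47.5 and 46.2 CPM (−1.53, SE 0.160, adjusted p = 9.94e-12) and Tlr7 from 276 and 246 to 143 and 114 CPM (−1.03, SE 0.124, adjusted p = 1.74e-10). The groups did not overlap in either gene, and the direction of Tlr7 was the opposite of that in BMDMs at 4 h of IFN-γ-LPS. Tlr3, the member with the largest step in BMDMs between 1 and 4 h, stood at 4.52 and 4.36 CPM untreated and 5.99 and 4.52 CPM with LPS (0.23, SE 0.399, adjusted p = 0.753). Tlr6 (0.09, SE 0.310, adjusted p = 0.896), Tlr9 (0.11, SE 0.367, adjusted p = 0.896), Tlr8 (−0.97, SE 0.431, adjusted p = 0.122) and Ly96 (−0.41, SE 0.531, adjusted p = 0.636) did not pass.

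**Figure D5:**
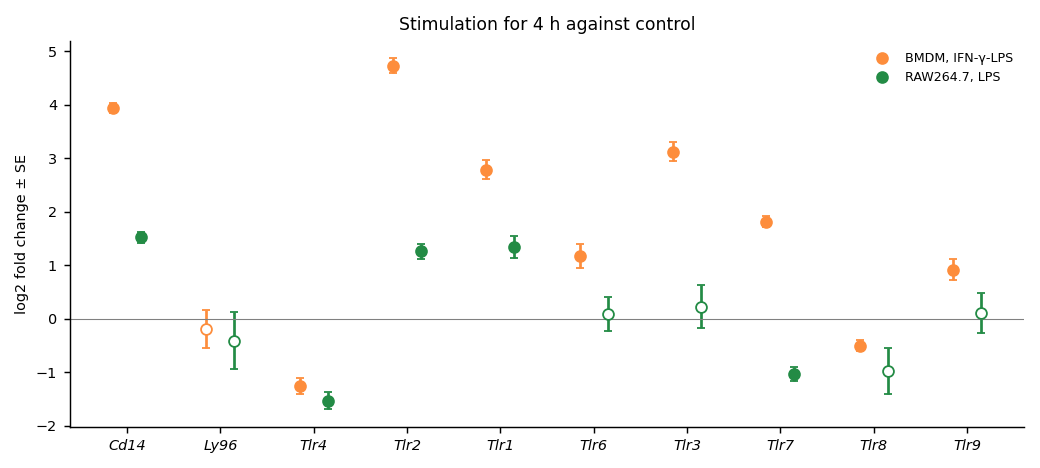
Log2 fold change of each gene at 4 h in RAW264.7 cells (LPS against untreated, 2 samples each) and in BMDMs (IFN-γ-LPS against control, 3 samples each). Points are edgeR estimates with SE bars, filled where the adjusted p was at most 0.01. Tlr7 lies at −1.03 in RAW264.7 cells and at 1.82 in BMDMs.

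The responses at 4 h were compared by the test of their difference. The stimulated groups differ in IFN-γ, cell source, medium and antisense Rn45s share together. The response was lower in RAW264.7 cells for 5 members (15.3% of all genes) and higher for 0 (9.75%). By DESeq2 these counts were 5 and 0, and no member had a higher response at an unadjusted p under 0.05. Tlr2 differed by −3.47 (SE 0.197, adjusted p = 3.18e-17), Tlr3 by −2.90 (SE 0.471, adjusted p = 4.96e-07), Tlr7 by −2.84 (SE 0.158, adjusted p = 1.22e-25), Cd14 by −2.42 (SE 0.138, adjusted p = 4.64e-25) and Tlr1 by −1.44 (SE 0.287, adjusted p = 4.03e-05). Tlr4, which fell in both, did not differ beyond the spread (−0.27, 95% interval −0.70 to 0.15, adjusted p = 0.370). Tlr6 missed the threshold (−1.09, SE 0.382, adjusted p = 0.0212).

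Stimulated RAW264.7 cells held less of all 10 members than BMDMs at 4 h of IFN-γ-LPS. The count of 10 lower compares with 35% of all genes and the count of 0 higher with 31.2%. DESeq2 called 9 lower and 0 higher, and no member was higher at an unadjusted p under 0.05. The differences ran from −5.79 for Tlr8 (SE 0.227, adjusted p = 1.53e-35) and −4.34 for Tlr3 (SE 0.224, adjusted p = 1.27e-28) to −0.56 for Tlr4 (SE 0.174, adjusted p = 0.00343) and −0.34 for Cd14 (SE 0.0942, adjusted p = 0.00104). The last 2 turned direction without TMM factors, to 0.13 for Tlr4 (adjusted p = 0.470) and to 0.35 for Cd14 (adjusted p = 0.000292). The call of Tlr4 was lost by DESeq2 (−0.51, adjusted p = 0.0141) and without IFN-γ-LPS 4 h replicate 3 (−0.45, adjusted p = 0.0377), RAW264.7 LPS replicate 1 (−0.58, adjusted p = 0.0159) or replicate 2 (−0.54, adjusted p = 0.0285), and that of Cd14 without RAW264.7 LPS replicate 2 (−0.28, adjusted p = 0.0369). Ly96 (−1.68, SE 0.474, adjusted p = 0.00119) was lost without TMM factors (−0.99, adjusted p = 0.0530), without IFN-γ-LPS 4 h replicate 3 (−1.50, adjusted p = 0.0134) and without RAW264.7 LPS replicate 2 (−1.32, adjusted p = 0.0328).

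Among the pathway lists in RAW264.7 cells, LPS raised 5 and lowered 0 of the 18 adaptors, raised 4 and lowered 0 of the 7 inhibitors tested, and raised 1 and lowered 1 of the 9 accessory proteins tested, where 8.9% of all genes rose and 9.61% fell. The accessory count of 2 ranged from 1 to 4 over the alternatives. The medians were 0.17, 1.05 and −0.04, against −0.02 over all genes. Ikbke rose by 2.89 (SE 0.141, adjusted p = 1.48e-28), Irak2 by 1.84 (SE 0.131, adjusted p = 5.40e-20), Slc15a3 by 3.04 (SE 0.144, adjusted p = 1.21e-29) and Lilrb4a by 1.82 (SE 0.123, adjusted p = 1.10e-19). Ly86 rose in BMDMs at 1 h, and its mean there was 217.5 CPM at 4 h of IFN-γ-LPS against 54.81 CPM in the control. In the line Ly86 fell at 4 h (−0.53, SE 0.134, adjusted p = 0.00150). Tlr13 fell by 1.90 (SE 0.143, adjusted p = 1.07e-18). At rest the line held less Slc15a3 (−4.20, SE 0.137, adjusted p = 4.26e-40) and less Unc93b1, the chaperone that carries nucleic acid TLRs to endosomes (−1.85, SE 0.111, adjusted p = 6.34e-25), and more Hsp90b1, the chaperone that folds TLRs (1.74, SE 0.108, adjusted p = 3.84e-24).

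Over the 9 conditions, the members differed in how widely and in which order their mean levels ran. The orders depend on the scaling, since without TMM factors a member kept 1 (Tlr6) to 7 (Tlr1 and Tlr8) of its 9 places, and Tlr4 and Cd14 kept 3 each. Tlr8 spanned 6.66 on the log2 scale, Tlr2 6.27, Cd14 5.82, Tlr3 4.31 and Tlr1 4.11, while the others spanned 2.15 to 2.94. Within BMDMs alone the span of Tlr8 was 2.11. For Tlr2 the order was 4 h, 1 h, 12 h and 24 h of IFN-γ-LPS, then RAW264.7 with LPS, RAW264.7 untreated, control, IL-13 and IL-4. The neighbours 12 h and 24 h (adjusted p = 0.0698), 24 h and RAW264.7 with LPS (0.672), and IL-13 and IL-4 (0.811) did not pass. For Cd14 every pair of neighbours differed but IL-4 and IL-13, in the order 4 h, RAW264.7 with LPS, 12 h, 1 h, 24 h, RAW264.7 untreated, control, IL-4 and IL-13.

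For Tlr7 the order was 4 h, 12 h, 24 h, control, 1 h, RAW264.7 untreated, IL-13, IL-4 and RAW264.7 with LPS, and the run from the control to IL-4 held no pair of neighbours that differed. For Tlr8 the order was IL-13, IL-4, control, 12 h, 4 h, 1 h, 24 h, RAW264.7 untreated and RAW264.7 with LPS, where IL-13 and IL-4, the run from 12 h to 1 h, and the RAW264.7 groups did not differ between neighbours. For Tlr4 it was IL-13, IL-4, control, 1 h, RAW264.7 untreated, 12 h, 24 h, 4 h and RAW264.7 with LPS. Only the step from untreated RAW264.7 to 12 h (adjusted p = 8.31e-05) and the last step (adjusted p = 0.00343) passed. For Tlr1 the order was 24 h, 12 h, 4 h, RAW264.7 with LPS, 1 h, control, RAW264.7 untreated, IL-4 and IL-13, and the last 4 did not differ between neighbours. Neither did 24 h and 12 h, nor RAW264.7 with LPS and 1 h.

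For Tlr3 the order was 4 h, 12 h, 24 h, IL-13, control, 1 h, IL-4, RAW264.7 with LPS and RAW264.7 untreated, with passing steps from 12 h to 24 h, from 24 h to IL-13 and from IL-4 to RAW264.7 with LPS (adjusted p = 0.00459). For Tlr6 it was 12 h, 4 h, 24 h, IL-4, IL-13, 1 h, control, RAW264.7 with LPS and RAW264.7 untreated, and the step from 24 h to IL-4 was the one that passed (adjusted p = 0.000335). For Tlr9 it was 12 h, 4 h, 1 h, control, 24 h, IL-4, IL-13, RAW264.7 with LPS and RAW264.7 untreated, and the step from 1 h to the control was the one that passed (adjusted p = 0.000606). For Ly96, from 16.0 CPM at 24 h to 2.84 CPM in RAW264.7 cells with LPS, no neighbours differed. Some conditions further apart did, such as 1 h against 24 h (−1.34, SE 0.311, adjusted p = 0.000213). Another such pair was 24 h against RAW264.7 with LPS (2.52, SE 0.380, adjusted p = 1.83e-08).

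The genes whose condition means ran most like those of each member were found among 7872 genes by Pearson's r of log2(mean CPM + 1) over the 9 conditions, as a description with no test. The 9 points share the same libraries and scaling. Tlr2 was nearest to Nlrp3 (0.983), Marcksl1 (0.982) and its fellow member Cd14 (0.971), and Cd14 was nearest to Tlr2 (0.971), Marcksl1 (0.964) and Nlrp3 (0.949). Tlr1 was nearest to Oas3 (0.993), Apol9b (0.992) and Rtn2 (0.992), and Tlr3 to Sntb1 (0.991), Atp10a (0.987) and Tdrd7 (0.986). Tlr6 was nearest to Casp8 (0.987), Fabp3 (0.987) and Zeb1 (0.984), and Tlr7 to Dnm1l (0.973), Crbn (0.964) and Ncoa7 (0.963). Tlr9 was nearest to Zfp281 (0.978), Trpc4ap (0.959) and Rap1gap2 (0.958), Tlr4 to Sp3 (0.967), Bcl2 (0.962) and P2rx7 (0.958), Tlr8 to Acss1 (0.992), Dnase1l1 (0.992) and Zfp874a (0.991), and Ly96 to Antxr1 (0.983), Gpr107 (0.981) and Blnk (0.978). Within the family, the receptor most like Tlr7 was Tlr3 (0.935), not its neighbour Tlr8, and the one most like Tlr4 was Tlr8 (0.580). These lists changed with the measure, since Spearman's rho or the 7 BMDM conditions alone kept 4 genes each over all 10 members together, and at most 1 (rho) or 2 (BMDMs) of the 3 named for a member.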

How the data were processed

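RNA was depleted of ribosomal RNA, made into directional libraries and sequenced in pairs. The submitters' processing notes name CASAVA 1.8.2, Trimmomatic 0.33, STAR 2.5.1, DESeq2 and build mm10. The annotation release is not given in the sources used here. The authors deposited, for each of the 25 samples, raw read counts per gene, unstranded and for each strand. The strand with 118 times more reads was used here. Reads on no feature (62.7% to 69.1% of that strand's total) and Rn45s were left out. The values are counts, so counting error, which the intervals and SE cover together with the spread of samples, is largest for the genes with few reads.

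Samples were grouped by the labels. Genes were filtered with filterByExpr, scaled with TMM and tested with edgeR 4.0.16 (R 4.3.3; glmQLFit with robust estimation, 9 group means, all 25 samples in 1 fit), with Benjamini-Hochberg adjustment over 10612 genes and calls at 0.01. The script was tested on simulated data. Lengths are the union of GENCODE M21 exons. All 10 members are named, and at most 4 called genes per pathway list and experiment (largest absolute change, group mean of at least 10 CPM), and the 3 genes most like each member. Members and lists were chosen with earlier results of these data known. Alternatives were DESeq2 1.42.0, RLE factors, no filter, Rn45s kept, unstranded counts, a replicate block, only the samples of the experiment, fold cutoffs, each sample left out, and (added after seeing the data) no TMM factors. Python 3.11.15, SciPy 1.17.1 and matplotlib 3.10.9 were used for the remaining steps.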

Additional observations from a re-analysis of the deposited data

Results flagged for a closer look

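In 5 members the response at 4 h differed between RAW264.7 cells given LPS and BMDMs given IFN-γ-LPS by edgeR's test of the difference itself, with both sets of controls in the model. Tlr2 responded with a log2 fold change lower by −3.47 in RAW264.7 cells (SE 0.197, adjusted p = 3.18e-17), Cd14 by −2.42 (SE 0.138, adjusted p = 4.64e-25) and Tlr1 by −1.44 (SE 0.287, adjusted p = 4.03e-05), all 3 being genes that rose in both. Tlr7, which fell in the line and rose in BMDMs, differed by −2.84 (SE 0.158, adjusted p = 1.22e-25). Tlr3, which passed in BMDMs alone, differed by −2.90 (SE 0.471, adjusted p = 4.96e-07). The groups differ in IFN-γ, in mouse strain, in being primary cells or a transformed line, in culture medium and in the antisense Rn45s share. These cannot be told apart here.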

How the results depend on the processing

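Of the 160 values of the members, 160 kept their direction and their side of the threshold with RLE factors and with Rn45s kept, 159 without the filter, 158 with unstranded counts and 157 by DESeq2. Without TMM factors 148 did so, and 2 turned direction in the comparison of RAW264.7 LPS with IFN-γ-LPS at 4 h, namely Tlr4 (0.13) and Cd14 (0.35). With each of the 25 samples left out in turn, 3976 values kept both, 19 lost the call and 5 gained one. The limits are few reads (Ly96 in all samples, and Tlr8, Tlr3 and Tlr9 in RAW264.7 cells), 2 samples in each RAW264.7 group, so that leaving one out rests on the spread of the other groups, and an untreated BMDM control at 1 time.

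With the study's fold cutoffs added (log2 1.5 for IFN-γ-LPS, 0.7 for the cytokines and 2 for RAW264.7), the members called against the control were 2 in place of 5 (1 h), 5 in place of 9 (both 4 h and 12 h) and 4 in place of 8 (24 h). They were 3 in place of 7 from 1 to 4 h, 0 in place of 4 from 4 to 12 h and 0 in place of 5 from 12 to 24 h. They were 2 in place of 4 with IL-4 and 0 in place of 5 in RAW264.7 cells given LPS. Between the untreated cell types the cutoff was log2 1.5, not 2, and left 4 in place of 7. With 1 sample left out, the count ranged over 4 to 5 (1 h), 9 to 9 (4 h and 12 h) and 8 to 9 (24 h), over 7 to 7, 4 to 4 and 5 to 6 over the successive steps, 3 to 4 with IL-4, 3 to 5 with IL-13 (3 without IL-13 replicate 2), 5 to 5 in RAW264.7 cells, 5 to 7 between the untreated cell types, 7 to 10 between the stimulated ones, and 5 to 5 for the difference of responses. With each sample left out it stayed at 0 for IL-13 against IL-4 and at 9 for IFN-γ-LPS against each cytokine.

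Without TMM factors the share of called genes that were higher fell from 52.5% to 26.5% between 1 and 4 h and from 51.5% and 51.3% to 29.6% and 28.0% against IL-4 and IL-13. It went from 45.5% to 65.5% between 4 and 12 h, from 31.1% to 52.9% between 12 and 24 h, from 48.1% to 32.3% in RAW264.7 cells, from 47.1% to 67.3% between the stimulated cell types and from 39.0% to 70.1% for the difference of responses.

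A fit with the replicate number as a block gave the same counts of members but 6 in place of 5 from 12 to 24 h, where Tlr6 was added (−0.55, adjusted p = 0.00671). Over all genes the block gave 1538 calls in place of 1441 from 12 to 24 h, and it gave fewer calls in no comparison. Deviations of same-numbered samples correlated at −0.0809 to 0.211 (mean 0.0216 over 63 pairs of samples from different BMDM groups). Whether the numbers pair the samples was not tested. Of 64 counts in the pathway lists, 21 moved by over 1.5 times under some alternative. Among the adaptors, accessory proteins and inhibitors, these included no count against the control at 1, 4, 12 or 24 h.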
